A study of Homo sapiens with 44 samples.

Results

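CXCL9, CXCL10 and CXCL11 are the CXC chemokines that bind the receptor CXCR3. They were taken by their symbols, 3 of the 40663 symbols in the count table, and followed over all 11 groups of a cytokine stimulation experiment in colon fibroblasts. All 3 passed the filter on low counts and were tested, CXCL9 only through its counts in the IFNγ group. The cells were Ccd-18Co, a fibroblast line from human colon, 1 line with no donor replication, and RNA was sequenced in bulk. The groups were unstimulated cells and cells given IFNα, IFNγ, TNF, IL-1β, TGF-β1, IL-6, IL-22, OSM (oncostatin M), IL-17A or IL-13, with 4 libraries each and 44 in all. The labels write IFNA, IFNG, IL1B and TGFB1 for IFNα, IFNγ, IL-1β and TGF-β1. Serum was withheld from all groups, the unstimulated one included, for 72 h before the stimulation, which lasted 24 h. The cytokine dose was 10 ng/ml, except for IL-1β at 0.1 ng/ml in the labels and methods and 0.01 ng/ml in a figure legend. Nothing states whether the 4 libraries of a group came from separate experiments, so the p-values measure the spread between these libraries, which may be technical.

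CXCL9 (also MIG), CXCL10 (IP-10) and CXCL11 (I-TAC) are small secreted proteins that attract activated T cells and natural killer cells, the main bearers of CXCR3. Interferons switch the genes on through JAK kinases and STAT factors, which bind interferon-stimulated response elements (ISRE) and gamma-activated sites (GAS) in promoters, and inflammatory cytokines such as TNF act through NF-κB. Stromal cells of the gut are known as a source of these chemokines when interferon is present.

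The 3 genes lie side by side on the minus strand of chromosome 4, over 40.1 kb of GRCh38. GENCODE release 44 places CXCL9 at chr4:76001275-76007509 with 1 transcript of 2761 bases, CXCL10 at chr4:76021118-76023497 with 1 transcript of 1175 bases, and CXCL11 at chr4:76033682-76041415 with 2 transcripts of 1479 and 767 bases. ART3 runs across CXCL10 and CXCL11 on the opposite strand and shares 0 exon bases with either. ART3 had 5 to 22 counts in the IFNγ libraries and at most 4 in any other library. Whether the counting used strand is not given in the sources used here.

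The 250 bases before each RefSeq transcription start (GRCh38.p14, minus strand) are shown with their matches to interferon and NF-κB motifs. The members differed in which cytokines raised them, and any link of these motifs to that difference was not tested. The windows are chr4:76007510-76007759 for CXCL9, chr4:76023498-76023747 for CXCL10 and chr4:76036071-76036320 for CXCL11, and 0 of their bases are annotated as exon. The CXCL11 window precedes the start of 1 of its 2 GENCODE transcripts. It lies inside the annotated gene, which extends to position 76041415. Capitals mark an ISRE (GAAANNGAAA), a GAS (TTCNNNGAA) or the NF-κB consensus, each searched on both strands.
CXCL9: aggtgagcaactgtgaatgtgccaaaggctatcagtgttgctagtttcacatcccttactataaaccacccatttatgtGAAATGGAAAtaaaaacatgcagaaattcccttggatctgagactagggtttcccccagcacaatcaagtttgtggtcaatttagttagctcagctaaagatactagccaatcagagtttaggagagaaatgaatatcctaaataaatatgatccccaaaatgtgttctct
CXCL10: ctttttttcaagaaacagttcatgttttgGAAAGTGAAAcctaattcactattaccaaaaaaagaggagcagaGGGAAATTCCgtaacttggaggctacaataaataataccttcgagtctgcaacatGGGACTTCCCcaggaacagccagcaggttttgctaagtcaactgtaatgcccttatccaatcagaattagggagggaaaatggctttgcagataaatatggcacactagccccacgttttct
CXCL11: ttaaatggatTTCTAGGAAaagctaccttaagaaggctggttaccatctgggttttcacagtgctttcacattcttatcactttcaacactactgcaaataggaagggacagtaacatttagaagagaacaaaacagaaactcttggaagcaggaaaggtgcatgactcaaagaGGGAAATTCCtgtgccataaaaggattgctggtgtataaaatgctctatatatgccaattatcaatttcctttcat

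An ISRE match lay 171 to 162 bases before the CXCL9 start and 221 to 212 bases before the CXCL10 start. The NF-κB consensus was matched at 177 to 168 and 122 to 113 bases before the CXCL10 start, and at 76 to 67 bases before the CXCL11 start. The CXCL11 window also held a GAS match at 240 to 232 bases, and none of these matches overlapped another. Over all 35116 promoter windows of the same length, 3.02% held the ISRE letters, 6.57% the GAS letters and 5.21% the NF-κB consensus. The CXCL11 window held no ISRE match, the CXCL10 window no GAS match, and the CXCL9 window neither a GAS nor an NF-κB match. A match describes the letters and is not evidence of binding, and the lack of a match is not evidence that a site is absent.

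Library totals were 742173 to 2213424 counts (median 1480883), and 9513 genes passed the filter. CXCL9 passed it through the IFNγ libraries, at 198 to 266 counts each. Elsewhere it exceeded 4 counts only in TGF-β1 replicate 3 (11 counts) and TNF replicate 4 (18 counts). Levels are given as CPM (counts scaled to a common library size after TMM normalization), on which a count of 3 was worth 1.39 to 3.84 CPM, and intervals on counts cover counting error only. The labelled cell type was checked against its markers. All 9 fibroblast markers had counts in every library. The lowest was PDGFRB, at 2 to 27 counts, and the highest decorin (DCN), at 12039 counts or more. The T cell markers CD3D, CD3E and CD2 were at 0 in all 44 libraries. CD8A, PTPRC, PECAM1, CDH5, EPCAM, CDH1 and KRT20 never exceeded 3 counts and VWF never exceeded 4. In bulk RNA, fewer expressing cells and less RNA per cell cannot be told apart.

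IFNγ was the cytokine with which all 3 ligands rose. CXCL10 and CXCL11 rose from a few counts to the level of abundant transcripts, and CXCL9 reached a lower level. CXCL10 was at 0, 0, 2.81 and 6.15 CPM in the 4 unstimulated libraries and at 3599, 4442, 7931 and 6948 CPM with IFNγ. CXCL11 was at 0, 0, 4.22 and 0 CPM unstimulated and at 1918, 2390, 2594 and 2416 CPM with IFNγ. CXCL9 was at 158, 164, 174 and 189 CPM with IFNγ, against 1 count in 1 of the 4 unstimulated libraries. Every IFNγ library lay above every unstimulated library for each member.

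The log2 fold change of CXCL10 with IFNγ was 11.36 (standard error, SE, 0.80, adjusted p = 3.51e-15 by the quasi-likelihood test of edgeR after Benjamini-Hochberg correction, which also gave the other adjusted p-values unless another test is named). This was the largest rise of the 9513 genes tested in that comparison. CXCL11 rose by 11.12 (SE 0.89, adjusted p = 6.32e-13), the rise in place 3, and CXCL9 by 9.47 (SE 1.13, adjusted p = 3.32e-07), in place 8. Calls required an adjusted p below 0.05 together with a log2 fold change beyond 1.5 in either direction, and by this rule 3 of 3 ligands were called higher, where 2.4% of all tested genes were. CXCL9 was among the tested genes only through its counts in this group. The unstimulated counts behind these values were few. The 4 libraries held 1 count of CXCL9 in total, and the pooled counts of 875 and 1 gave a ratio of 1083 with an exact 95% counting interval of 194 to 42826. Without unstimulated replicate 4, which held 9 of the CXCL10 counts, the CXCL10 value was 12.62, without unstimulated replicate 3, which held all 6 CXCL11 counts, the CXCL11 value was 14.74, and without unstimulated replicate 1 the CXCL9 value was 10.96. The values 14.74 and 10.96 stand against 0 unstimulated counts, so they are fitted values and no measure of size.

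IFNα also raised CXCL10 and CXCL11, while CXCL9 stayed at a few counts. CXCL10 stood at 5615, 5751, 7100 and 6807 CPM in the IFNα libraries, and CXCL11 at 3937, 3772, 3684 and 4125 CPM. CXCL9 had 4, 3, 1 and 3 counts, or 0.794 to 2.20 CPM. All 4 IFNα libraries were above all unstimulated ones for CXCL10 and CXCL11. For CXCL9 they were so on the CPM scale only, since replicate 3 and unstimulated replicate 1 each held 1 count (0.794 and 0.490 CPM).

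The log2 fold change with IFNα was 11.50 for CXCL10 (SE 0.80, adjusted p = 1.88e-15) and 11.86 for CXCL11 (SE 0.90, adjusted p = 8.03e-14). For CXCL9 it was 2.93 (SE 1.51, adjusted p = 0.27), and its pooled counts of 11 and 1 gave a ratio of 11.2 with an exact counting interval of 1.62 to 481. Thus 2 of 3 ligands were called higher with IFNα, where 2.45% of all tested genes were. Without unstimulated replicate 4 the CXCL10 value was 12.75, without unstimulated replicate 3 the CXCL11 value was 15.48, and without unstimulated replicate 1 the CXCL9 value was 4.41 and still not called (adjusted p = 0.22). The values 15.48 and 4.41 again stand against 0 unstimulated counts and are no measure of size.

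**Figure D1:**
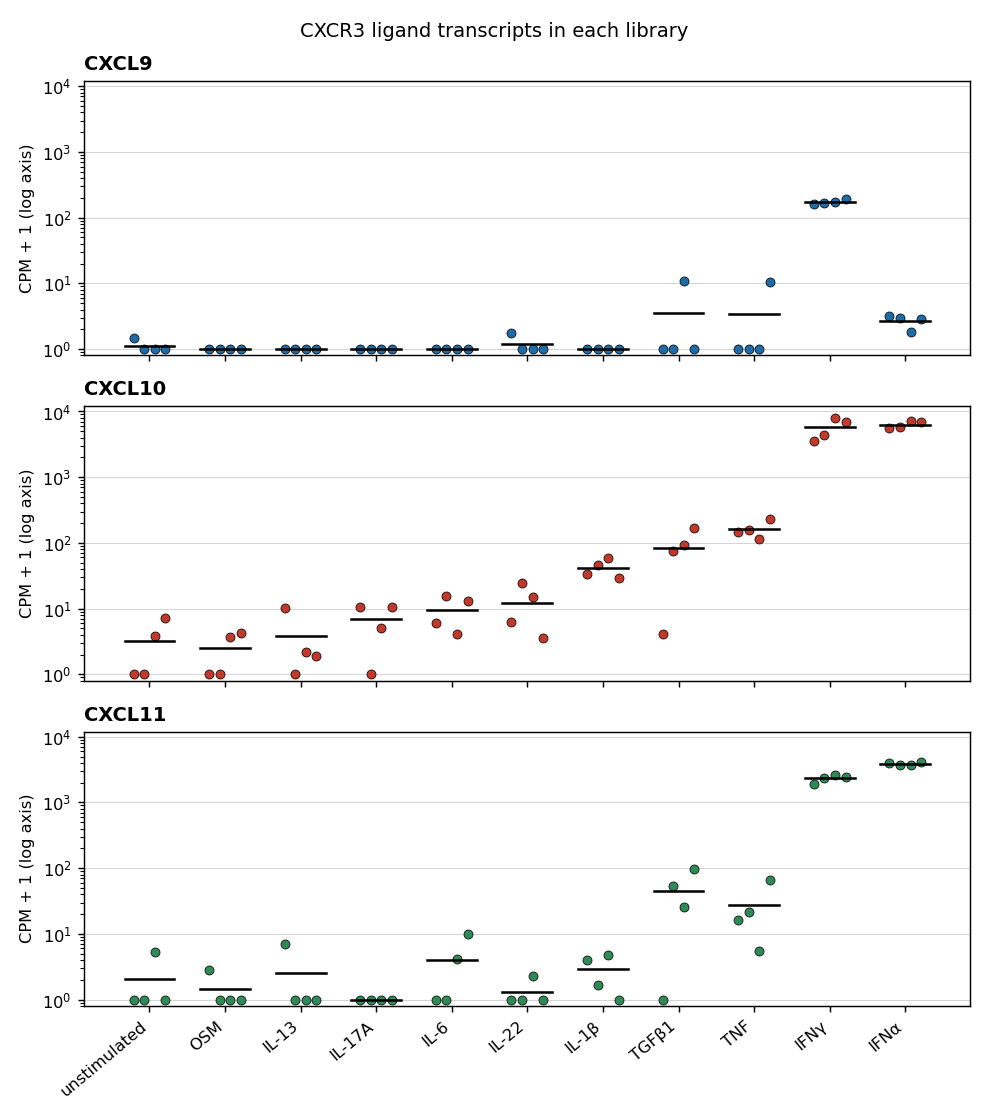
Level of each ligand transcript in each of the 44 libraries, as CPM + 1 on a log axis, by group. Points are libraries and black lines are group means. CXCL10 and CXCL11 stand at 1918 to 7931 CPM with both interferons, and CXCL9 reaches 158 to 189 CPM with IFNγ while its other libraries are at 9.98 CPM or less.

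Direct comparison of the interferons set CXCL9 apart from the other ligands. CXCL9 averaged 172 ± 13.6 CPM (SD, n = 4) with IFNγ and 1.71 ± 0.627 CPM (SD, n = 4) with IFNα, a log2 difference of 6.54 (SE 0.88, adjusted p = 5.67e-06). Pooled counts of 875 and 11 gave a ratio of 96.9 with an exact counting interval of 53.9 to 195. DESeq2's Wald test gave a like difference of 6.67 with an adjusted p of 0.17, so that this call was lost with that tool.

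CXCL10 averaged 5730 ± 2043 CPM with IFNγ and 6318 ± 745 CPM with IFNα (SD, n = 4 each), and the libraries overlapped. The log2 difference, IFNγ minus IFNα, was -0.14 (95% interval -1.05 to 0.77, adjusted p = 0.913). CXCL11 averaged 2329 ± 289 CPM with IFNγ and 3880 ± 194 CPM with IFNα (SD, n = 4 each). All 4 IFNα libraries were above all 4 IFNγ libraries for CXCL11, but the log2 difference of -0.74 (95% interval -1.70 to 0.22) did not pass the test (adjusted p = 0.434). The adjusted p depended on the fit, at 0.0275 with only the 8 libraries compared, 0.00409 with all genes of any count and 0.852 with DESeq2, and the difference was below the fold threshold in each. With all genes of any count, the adjusted p of CXCL10 with IL-1β likewise fell from 0.000194 to 1.1e-43, so the 0.00409 carries little weight. Of the 3 ligands, 1 was called different between the interferons, beside 2.74% of all tested genes.

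TNF raised CXCL10 and CXCL11 to a level far below that with the interferons. CXCL10 was at 145, 158, 113 and 233 CPM with TNF, and every library was above the unstimulated ones. CXCL11 was at 15.5, 20.7, 4.50 and 64.8 CPM. Replicate 4 was the highest for both and replicate 3 the lowest for both, and the lowest CXCL11 value lay just above the highest unstimulated one of 4.22 CPM. CXCL9 had 0 counts in TNF replicates 1 to 3 and 18 counts in replicate 4.

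The log2 fold change with TNF was 6.22 for CXCL10 (SE 0.76, adjusted p = 4.05e-08) and 4.72 for CXCL11 (SE 1.01, adjusted p = 0.000866). For CXCL9 it was 3.58 (SE 1.42, adjusted p = 0.106), and it rested on replicate 4, without which it was -1.48 (adjusted p = 0.714). With TNF, 2 of 3 ligands were called higher, where 1.85% of tested genes were. Without unstimulated replicate 4 the CXCL10 value was 7.48. For CXCL11, the value was 8.34 without unstimulated replicate 3 and 3.71 without TNF replicate 4, and both were called. The value 8.34 stands against 0 unstimulated counts and is no measure of size.

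TNF replicate 4 also stood apart in other genes of the IFNγ response. GBP5, an interferon-inducible GTPase, had 26 counts there and 0 in TNF replicates 1 to 3, and IDO1, the tryptophan-degrading enzyme, had 65 counts against 0, 8 and 0. CD74, the invariant chain of MHC class II, had 20 counts against 0, 0 and 0. The summed level of the 10 listed IFNγ response genes was 898 CPM in replicate 4 and 586 to 687 CPM in the other TNF libraries, beside 595 to 897 CPM in unstimulated cells. The part of these in the CXCL9 and CXCL11 values was not tested. GBP5, IDO1 and CD74 were picked out here after their values were seen.

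Of the ligands, CXCL10 rose with IL-1β and the others were not called. CXCL10 was at 32.3, 45.1, 58.4 and 27.9 CPM, all above the unstimulated libraries, with a log2 fold change of 4.23 (SE 0.80, adjusted p = 0.000194). CXCL11 was at 3.03, 0.663, 3.81 and 0 CPM, within the range of unstimulated cells, with a log2 fold change of 0.96 (SE 1.55, adjusted p = 0.846), and CXCL9 had 0 counts in all 4 IL-1β libraries. Thus 1 of 3 ligands was called higher, where 1.47% of tested genes were. Without unstimulated replicate 4 the CXCL10 value was 5.48, and without unstimulated replicate 3 the CXCL11 value was 4.57 and not called (adjusted p = 0.468). This CXCL11 value stands against 0 unstimulated counts and is no measure of size. IL-1β was given at a lower dose than the other cytokines.

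TNF and IL-1β, whose doses differ, were also set side by side in the same model. CXCL10 was higher with TNF than with IL-1β by 1.99 on the log2 scale (SE 0.52, adjusted p = 0.0405) and CXCL11 by 3.76 (SE 0.88, adjusted p = 0.0172), and in both genes the libraries did not overlap. Of the 3 ligands 2 were called different, beside 0.378% of all tested genes. These calls were weak. CXCL10 lost its call without any of 7 of the 8 libraries, with adjusted p-values up to 0.132 and TNF replicate 3 the exception. CXCL11 lost it without TNF replicate 4 (2.74, adjusted p = 0.181), IL-1β replicate 2 or IL-1β replicate 4, and both calls were lost with DESeq2 (adjusted p = 0.235 and 0.208).

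The TGF-β1 libraries were uneven, with 1 of 4 at the unstimulated level. CXCL10 was at 3.12 CPM in replicate 1 and at 74.4, 91.6 and 165 CPM in replicates 2 to 4. CXCL11 was at 0 in replicate 1 and at 52.1, 24.5 and 96.1 CPM in the others. CXCL9 had 11 counts in replicate 3 and 0 in the other 3 libraries. For CXCL10 and CXCL11, 3 of 4 TGF-β1 libraries lay above all unstimulated libraries, and replicate 1 lay within their range.

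The log2 fold change with TGF-β1 was 5.27 for CXCL10 (SE 0.77, adjusted p = 6.88e-06) and 5.38 for CXCL11 (SE 0.97, adjusted p = 0.00027). For CXCL9 it was 3.37 (adjusted p = 0.212), and it was -1.49 without replicate 3 (adjusted p = 0.795). By the rule for calls, 2 of 3 ligands were higher, where 0.641% of tested genes were. The calls for CXCL10 and CXCL11 held without any 1 library. CXCL10 was at 6.52 without unstimulated replicate 4, and CXCL11 at 9.00 without unstimulated replicate 3 and 4.57 without TGF-β1 replicate 4. The value 9.00 stands against 0 unstimulated counts and is no measure of size.

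The summed level of antiviral interferon-stimulated genes was, like CXCL10 and CXCL11, lowest in replicate 1 of the TGF-β1 libraries. The summed level of 8 such genes was 34.3 CPM in replicate 1 and 351, 295 and 511 CPM in replicates 2 to 4, beside 67.6 to 121 CPM in unstimulated cells. RSAD2 (viperin), which inhibits viral replication, had 0 counts in replicate 1, 9, 9 and 14 in the others, and 0 in all unstimulated libraries. Relative to the IFNα mean, CXCL10 stood at 1.18, 1.45 and 2.61% in replicates 2 to 4, CXCL11 at 1.34, 0.631 and 2.48%, and RSAD2 at 1.29, 1.10 and 1.38%. Over these replicates the antiviral genes did not share an order. IFIT3 (1.03, 1.47 and 1.81%) and IFI44L (0.910, 1.12 and 4.89%) rose as CXCL10 did. OAS1 (4.57, 1.44 and 0.664%) and MX1 (1.93, 0.732 and 0.444%) fell. IFIT3, IFI44L, OAS1 and MX1 were picked out here after their values were seen.

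The TNF libraries had the opposite combination, with CXCL10 at 1.78 to 3.69% of the IFNα mean and RSAD2 at 0 counts in all 4. The summed antiviral level with TNF, 62.7 to 83.3 CPM, lay within or just below the range of unstimulated cells. The IL-1β libraries held 48.9, 76.2, 225 and 32.4 CPM of antiviral genes in replicates 1 to 4, the same order as their CXCL10 levels, with replicate 3 above every unstimulated library. RSAD2 had 1 count in 1 of these libraries. No transcript of IFNG was counted in any of the 44 libraries, and IFNB1 had 1 count in 1 IFNα library, both looked up after the other values were seen. The part of the antiviral level in the TGF-β1 and IL-1β results was not tested.

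**Figure D2:**
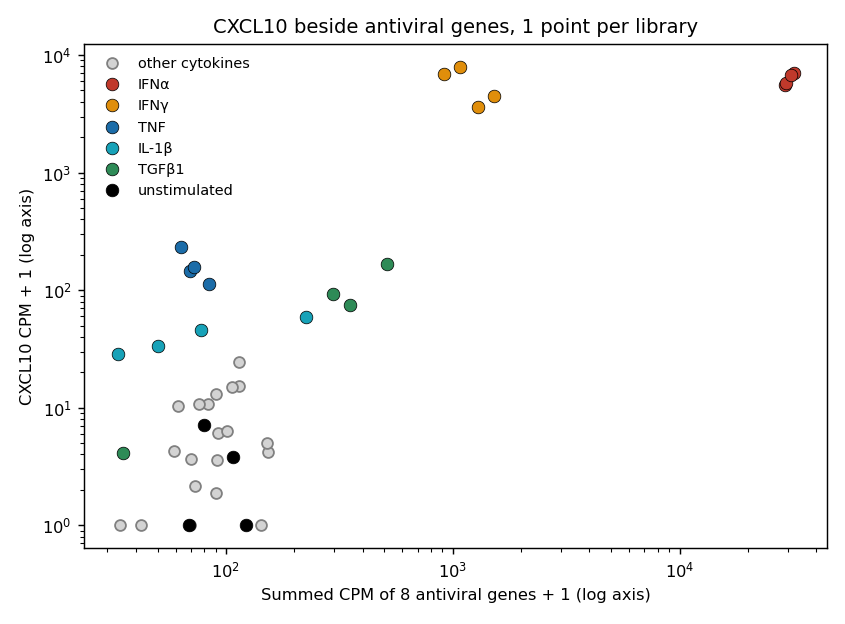
CXCL10 (CPM + 1) against the summed level of 8 antiviral genes (CPM + 1) in each library, both on log axes. TGF-β1 replicates 2 to 4 stand right of all unstimulated libraries, at 295 to 511 CPM of antiviral genes, whereas TNF libraries reach 113 to 233 CPM of CXCL10 with antiviral genes at 62.7 to 83.3 CPM.

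With the other 5 cytokines, no ligand was called. CXCL10 was at 5.32, 23.4, 14.1 and 2.56 CPM with IL-22 and at 5.14, 14.4, 3.16 and 12.1 CPM with IL-6. In each of these groups, 2 of 4 libraries lay above every unstimulated library, and the log2 fold changes of 2.33 (SE 0.96, adjusted p = 0.354) and 2.00 (SE 0.96, adjusted p = 1) did not pass. With each library left out they ranged from 1.57 to 3.58 with IL-22 and from 1.48 to 3.25 with IL-6, the highest without unstimulated replicate 4 and the lowest without IL-22 replicate 2 and unstimulated replicate 1, respectively, and neither was called. At an unadjusted p, CXCL10 was at 0.019 with IL-22 and 0.0423 with IL-6.

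CXCL10 was at 9.74, 0, 4.01 and 9.76 CPM with IL-17A, at 9.29, 0, 1.15 and 0.888 CPM with IL-13, and at 0, 0, 2.67 and 3.30 CPM with OSM. These libraries overlapped with the unstimulated ones, with log2 fold changes of 1.58 (adjusted p = 0.564), 0.49 (adjusted p = 0.908) and -0.61 (adjusted p = 0.903). The value for IL-13 changed sign without IL-13 replicate 1 (-1.42), and that for OSM without unstimulated replicate 4 (0.64). CXCL11 did not exceed 15 counts in any of these 20 libraries, and its adjusted p-values were 0.684 to 1. CXCL9 had 1 count in 1 IL-22 library and 0 in the other 19. The shares of all tested genes called higher were 0.0% with IL-22, 0.0105% with IL-6, 0.242% with IL-17A, 0.273% with IL-13 and 0.536% with OSM. No gene at all was called higher with IL-22 and 1 was with IL-6, so the absence of higher calls there was not particular to the ligands. With all genes of any count in the fit, CXCL10 was called with IL-22 (2.31, adjusted p = 8.72e-06), IL-6 (1.99, adjusted p = 0.0011) and IL-17A (1.58, adjusted p = 0.0102). That fit gave far smaller p-values at like fold changes (CXCL10 with IL-1β at 1.1e-43 against 0.000194), so these calls carry little weight.

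**Figure D3:**
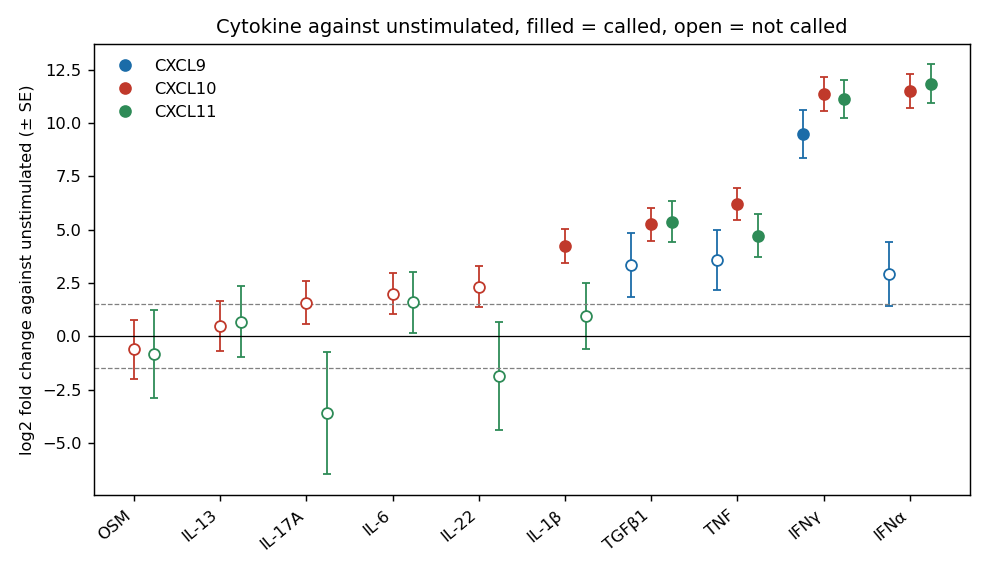
Log2 fold change of each ligand against unstimulated cells, with standard error, by cytokine. Filled points were called, open points were not, and dashed lines mark 1.5 in either direction. CXCL10 was called with 5 cytokines, CXCL11 with 4 and CXCL9 with IFNγ only. Points at or under 3 counts in every library of both groups are left out.

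CXCL10 was thus called with 5 of 10 cytokines, CXCL11 with 4 and CXCL9 with 1. For CXCL9 that cytokine was IFNγ, whose group alone had brought it through the filter. At an unadjusted p under 0.05 these numbers were 7, 4 and 3. All 10 comparisons share the same 4 unstimulated libraries.

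In the order of group means, CXCL10 fell from IFNα through IFNγ, TNF, TGF-β1, IL-1β, IL-22, IL-6, IL-17A and IL-13 to unstimulated cells and OSM. Of these 10 steps, 1 passed the test, that from IFNγ to TNF (log2 difference 5.14, SE 0.56, adjusted p = 1.46e-09), in a comparison where 3.65% of all tested genes were called. TNF and TGF-β1 did not differ beyond their spread (162 ± 50.9 and 83.6 ± 66.5 CPM, SD, n = 4, log2 difference 0.95, adjusted p = 0.346), with 2.73% of tested genes called between them. Neither did TGF-β1 and IL-1β (log2 difference 1.04, adjusted p = 0.273, with 3.05% called). IL-1β and IL-22 did not overlap in CXCL10, but the log2 difference of 1.90 missed the threshold (adjusted p = 0.0669, with 2.48% called).

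CXCL11 fell in the order IFNα, IFNγ, TGF-β1, TNF and IL-6, followed by groups with means under 2 CPM. The step from IFNγ to TGF-β1 passed (log2 difference 5.74, SE 0.62, adjusted p = 2.15e-09), with 4.06% of tested genes called in that comparison. The step from TNF to IL-6 passed as well (3.13, SE 0.81, adjusted p = 0.00731, with 3.89% called), although 1 IL-6 library lay above the lowest TNF library. TGF-β1 and TNF did not differ beyond their spread (43.2 ± 41.2 and 26.4 ± 26.5 CPM, SD, n = 4, log2 difference 0.65, adjusted p = 0.681), and the sign turned without TGF-β1 replicate 4 (-0.18). For CXCL9 the only step that passed was from IFNγ to the next group, TGF-β1 (6.11, SE 0.88, adjusted p = 7.54e-06).

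The interferons were also compared with TNF and IL-1β. CXCL10 was higher with IFNα than with TNF by 5.28 on the log2 scale (SE 0.56, adjusted p = 5.25e-10) and CXCL11 by 7.13 (SE 0.66, adjusted p = 2.19e-11). With IFNγ the differences from TNF were 5.14 for CXCL10 and 6.40 for CXCL11 (adjusted p = 2.95e-10). CXCL9 was higher with IFNγ than with TNF by 5.90 (SE 0.84, adjusted p = 7.69e-06), a value set by TNF replicate 4, without which it was 10.98, and DESeq2's Wald test did not call it (adjusted p = 0.248). The value 10.98 stands against 0 TNF counts and is no measure of size. The CXCL11 difference was 8.16 for IFNα and 7.44 for IFNγ without TNF replicate 4.

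CXCL9 was not called between IFNα and TNF (-0.65, 95% interval -2.57 to 1.28, adjusted p = 0.752), and this value turned to 4.42 without TNF replicate 4. The value 4.42 likewise stands against 0 TNF counts and is no measure of size. Against IL-1β the differences were 7.27 and 7.13 for CXCL10 with IFNα and IFNγ, and 10.89 and 10.16 for CXCL11. Of the 3 ligands, 2 were called between IFNα and TNF (6.29% of all tested genes), 2 between IFNα and IL-1β (6.48%), 3 between IFNγ and TNF and 3 between IFNγ and IL-1β (4.27%).

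The proportion of CXCL11 to CXCL10 within a library does not depend on how libraries are scaled. It could be followed in the 3 groups where both genes had over 3 counts in every library. The log2 ratio of the counts, with 0.5 added to each, was -0.51, -0.61, -0.95 and -0.72 with IFNα and -0.91, -0.89, -1.61 and -1.52 with IFNγ. With TNF it was -3.20, -2.90, -4.53 and -1.84, below every interferon library. CXCL11 was thus the smaller member of the pair in all 12 libraries.

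The mean ratio was -0.70 ± 0.187 with IFNα, -1.23 ± 0.387 with IFNγ and -3.12 ± 1.11 with TNF (SD, n = 4 each). IFNα minus TNF was 2.42 and IFNγ minus TNF was 1.88, each with p = 0.0286 by a 2-sided exact permutation test over 4 against 4 libraries, the smallest p the design allows, and 0.0429 after adjustment over the 3 tests. IFNα minus IFNγ was 0.54, with overlapping libraries (exact permutation p = 0.0857, adjusted p = 0.0857). In both interferon groups, replicates 1 and 2 lay above replicates 3 and 4. Within each of these pairs of replicates, every IFNα library was above every IFNγ library. The test did not take up this split, which was seen after the values were known.

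**Figure D4:**
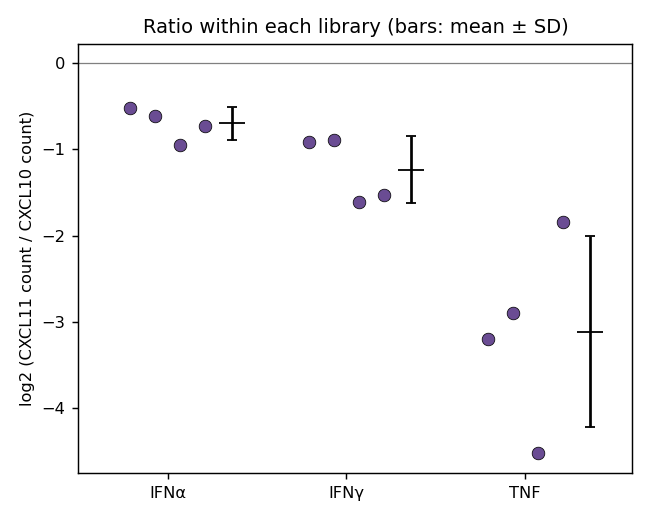
Log2 ratio of CXCL11 to CXCL10 counts within each library of the IFNα, IFNγ and TNF groups. Points are libraries and bars are means ± SD. The 4 TNF libraries, from -4.53 to -1.84, lie below all 8 interferon libraries.

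Per length of the longest transcript, CXCL10 was the most abundant ligand with IFNα, IFNγ and TNF. With IFNγ the level was 4877 ± 1739 CPM per kb for CXCL10, 1575 ± 195 for CXCL11 and 62.1 ± 4.92 for CXCL9 (SD, n = 4). With IFNα it was 5377 ± 634 CPM per kb for CXCL10, 2623 ± 131 for CXCL11 and 0.619 ± 0.227 for CXCL9. Among the 9491 tested genes with an annotated length, CXCL10 was in place 5 with IFNγ and place 7 with IFNα, CXCL11 in places 39 and 17, and CXCL9 in places 1041 and 8932.

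As shares of the 3 ligands per kb, CXCL10 made up 67.1 ± 2.83% with IFNα, 73.8 ± 5.16% with IFNγ and 90.1 ± 6.80% with TNF (SD, n = 4 each). CXCL11 made up 32.9 ± 2.83%, 25.2 ± 4.94% and 9.54 ± 6.15%. CXCL9 accounted for 0.737 to 1.30% in the IFNγ libraries, at most 0.0107% in the IFNα libraries and 1.42% in TNF replicate 4. CXCL10 was thus the larger part in each of these 12 libraries.

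**Figure D5:**
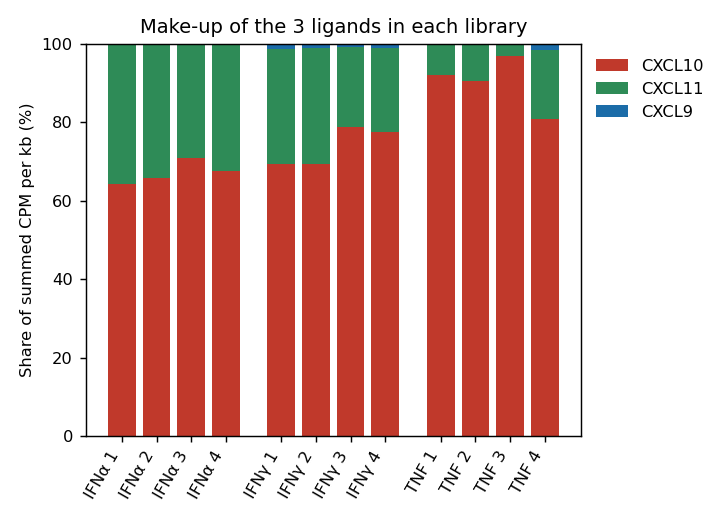
Share of each ligand in the summed CPM per kb of the 3 ligands, in percent, in each library of the IFNα, IFNγ and TNF groups. CXCL10 is the largest part in all 12 libraries, CXCL11 shrinks from 29.2 to 35.8% with IFNα to 3.08 to 17.8% with TNF, and CXCL9 is a thin band with IFNγ.

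The list of receptors and modifiers of the axis held 6 genes. CXCR3, the receptor of all 3 ligands, had 0 counts in all 44 libraries, as had the scavenging receptor ACKR1. The tested genes were DPP4 and ACKR3. DPP4, the peptidase that trims the ends of these chemokines, fell with TGF-β1 from 86.0 ± 30.8 to 22.0 ± 12.5 CPM (SD, n = 4, log2 fold change -1.97, adjusted p = 4.32e-05), where 1.06% of all tested genes were called lower. ACKR3, a scavenging receptor for CXCL11 and CXCL12, fell with OSM from 4.25 ± 1.65 to 0.304 ± 0.609 CPM (log2 fold change -3.39, adjusted p = 0.0328), where 0.767% were called lower. This fall rests on 4 to 9 counts per unstimulated library and 0 to 2 with OSM. ACKR3 was also low with IL-22, at 0.670 CPM, and was not called there.

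Some genes of the interferon signal relay rose with the interferons. Of 10 tested genes of this list, 4 rose with IFNα and 5 with IFNγ, and 0 fell with either. Of all tested genes, 2.45% were called higher and 1.52% lower with IFNα, and 2.4% higher and 1.14% lower with IFNγ. The median log2 fold change of the list was 1.07 with IFNα and 1.39 with IFNγ, beside -0.01 over all genes in each. IRF1, a transcription factor of the IFNγ response, rose with IFNα by 1.53 (adjusted p = 0.0458) and with IFNγ by 4.52 (adjusted p = 7.63e-09). With TNF, 1 gene rose, the interferon receptor chain IFNAR2 (2.28, adjusted p = 3.44e-05), and 0 did with IL-1β or TGF-β1. Of all tested genes, 1.85% were called higher with TNF, 1.47% with IL-1β and 0.641% with TGF-β1.

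Some genes of the NF-κB relay rose with TNF and IL-1β. Of 10 tested genes, 3 rose with each of TNF and IL-1β, namely NFKB1, NFKBIA and TNFAIP3, and 0 with IFNα, IFNγ or TGF-β1. The shares of all tested genes called higher were 1.85% with TNF, 1.47% with IL-1β, 2.45% with IFNα, 2.4% with IFNγ and 0.641% with TGF-β1. The list's median was 0.96 with TNF and 0.85 with IL-1β, beside -0.02 and -0.01 over all genes. TNFAIP3, the A20 inhibitor of NF-κB, had the largest rise, of 5.42 with TNF (adjusted p = 9.04e-06) and 4.52 with IL-1β (adjusted p = 0.000161). Of 3 tested feedback inhibitors, USP18 rose with IFNα (9.26, adjusted p = 1.06e-10) and IFNγ (4.88, adjusted p = 0.000709) and SOCS3 with OSM (4.81, adjusted p = 0.000219). With OSM, 0.536% of all tested genes were called higher.

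Other interferon targets were listed as IFNγ response genes and antiviral genes. Of 9 tested IFNγ response genes, 9 rose with IFNγ and 8 with IFNα, where 2.4% and 2.45% of all tested genes were called higher. The median log2 fold change of these 9 genes was 5.25 with IFNγ and 3.33 with IFNα. GBP5 had the largest rise of this list with each, of 10.84 with IFNγ (adjusted p = 8e-09) and 5.56 with IFNα (adjusted p = 0.0028). TAP1, the peptide transporter, was the 1 gene of the list called with TNF (2.15, adjusted p = 0.0159), and 0 were called with IL-1β or TGF-β1. Of 8 antiviral genes, 8 rose with IFNα (median 9.18), 6 with IFNγ (median 4.08), 5 with TGF-β1 (median 2.73), 0 with TNF and 0 with IL-1β. Of all tested genes, 0.641% were called higher with TGF-β1, 1.85% with TNF and 1.47% with IL-1β. RSAD2 had the largest rise with TGF-β1 (6.35, adjusted p = 0.00066), with 0 counts in all unstimulated libraries, so that this fitted value is no bound.

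Chemokines that bind other receptors were counted in the same way. Of the 6 neutrophil-attracting CXC chemokines, 6 rose with IL-1β and 6 with TNF (medians 6.76 and 4.33), 3 rose with IL-17A, 4 fell with IL-13 and 0 changed with IFNα, IFNγ or TGF-β1. Of all tested genes, 1.47% were called higher with IL-1β, 1.85% with TNF and 0.242% with IL-17A. The shares called lower were 1.19% with IL-13 and 0.21% with IL-17A. Of this list CXCL2 rose most with IL-1β (7.30, adjusted p = 2.77e-10), CXCL8 most with TNF (6.62, adjusted p = 9.76e-07), and CXCL5 fell most with IL-13 (-5.05, adjusted p = 0.00349).

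CC chemokines rose with interferons and inflammatory cytokines alike. Of 6 tested, 5 rose with IFNα, 4 with IFNγ, 4 with TNF and 3 with IL-1β. With IL-13, IL-6 and IL-17A, 2, 1 and 1 of them rose. Of all tested genes, 2.45% were called higher with IFNα, 2.4% with IFNγ, 1.85% with TNF and 1.47% with IL-1β. For IL-13, IL-6 and IL-17A these shares were 0.273, 0.0105 and 0.242%. CCL8, which attracts monocytes, rose most with IFNα (4.75, adjusted p = 1.65e-08) and IFNγ (6.26, adjusted p = 2.55e-11), and CCL20, the ligand of CCR6, most with TNF (6.03, adjusted p = 6.34e-05) and IL-1β (7.91, adjusted p = 6.94e-07). CXCL12, the ligand of CXCR4, fell with TNF (-3.59, adjusted p = 2.28e-06), IL-1β (-2.55, adjusted p = 8.62e-05) and TGF-β1 (-1.86, adjusted p = 0.0069) and rose with OSM (2.99, adjusted p = 5.84e-07). The shares of all tested genes called lower were 2.34% with TNF and 1.3% with IL-1β. Of the 6 genes next to the ligands on chromosome 4, 4 were tested, ART3 not among them, and 0 met both conditions for a call with any cytokine. Their summed level was nevertheless higher with the interferons, at 624 to 707 CPM with IFNα and 499 to 579 CPM with IFNγ, against 294 to 333 CPM in unstimulated cells. SCARB2, a lysosomal membrane protein, went from 161 ± 5.26 CPM to 449 ± 53.6 with IFNα and 313 ± 28.5 with IFNγ (SD, n = 4), and its log2 fold changes of 1.48 (adjusted p = 1.74e-10) and 0.96 (adjusted p = 6.37e-06) passed the p threshold and not the fold threshold. SDAD1 passed the p threshold with IFNγ (0.71, adjusted p = 0.0191). SCARB2 and SDAD1 were picked out after their values were seen.

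The genes whose group means were most like each ligand included several of antigen presentation. Pearson's r was taken over the 11 group means of log2 CPM among the 9510 other tested genes, as a description, and the libraries share depth and groups. CXCL9 averaged 172 CPM with IFNγ and at most 2.50 CPM in any other group, so its r rests largely on the IFNγ group. For CXCL9 the 5 closest were HLA-DMA (r = 0.99), CD74 (0.99), HLA-DRA (0.99), HLA-DMB (0.99) and IRF1 (0.98). For CXCL11 they were ACKR4 (0.98), HLA-C (0.96), TRIM21 (0.96), B2M (0.95) and HLA-B (0.95).

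For CXCL10 they were SFT2D1 (0.96), ACKR4 (0.96), CNDP2 (0.93), HLA-B (0.93) and HLA-C (0.93). Over the 44 single libraries the values of SFT2D1 and CNDP2 were lower, at 0.74 and 0.53. ACKR4, a scavenging receptor for CC chemokines, was among the 5 closest for both CXCL10 and CXCL11. Between members, r was 0.96 for CXCL10 with CXCL11, 0.72 for CXCL9 with CXCL10 and 0.74 for CXCL9 with CXCL11.

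Markers of the fibroblast and of other cells were set beside these results. The summed level of the 9 fibroblast markers was 29194 to 41219 CPM in unstimulated libraries, 26958 to 35149 CPM with IFNα and 17245 to 34348 CPM with IFNγ. THY1 fell with TNF, IL-1β and IL-17A and COL1A1 with TNF, and the other markers were not called with any cytokine. Of the 5 macrophage and leukocyte markers 1 was tested, CD68, a lysosomal protein, which rose with IFNα from 2.87 to 59.1 CPM (log2 fold change 4.23, adjusted p = 3.41e-05) and with IFNγ to 13.9 CPM (2.15, adjusted p = 0.0473). PTPRC, which defines leukocytes, had at most 2 counts in any library, and CD14, LYZ and CSF1R at most 6.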

How the data were processed

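Bulk RNA-seq of Ccd-18Co was prepared with a NEBNext Ultra II kit. The authors checked reads with FastQC (0.11.9) and MultiQC (1.14), quantified them with kallisto (0.48.0) and deposited estimated counts per gene symbol, not scaled for depth. Of these, 5.73% were not whole numbers (tolerance 1e-06), none among the ligands. The labels name hg38, and the transcriptome release and strand setting are not given in the sources used here. Estimated counts were rounded to whole numbers, filtered with filterByExpr (9513 genes), normalized by TMM and fitted with edgeR (4.0.16, R 4.3.3) as 1 quasi-likelihood model of all 44 libraries with 1 coefficient per group (common biological coefficient of variation 0.331). Benjamini-Hochberg adjustment ran over all tested genes within a comparison, and calls needed an adjusted p below 0.05 with a log2 fold change beyond 1.5 either way. Standard errors were derived from the test statistic. Library totals of 742173 to 2213424 counts set the precision. Of 66 replicate pairs 0 were identical, and the lowest chi-square per degree of freedom was 3.21. Ratios were tested by exact permutation (scipy 1.17.1), counting intervals are exact conditional ones, and the code was tested on simulated data.

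The genes named are the 3 ligands, the genes of 15 lists with the largest rise or fall among those called or with at most 3 counts everywhere, and the 5 genes most like each ligand over group means (log2 CPM, prior count 2). Genes behind a count of 5 or fewer, and markers of other cell types, were also named after their values were seen. The values of 1 listed gene are not reported here. The ligands and lists were chosen with earlier results of these data known. Annotation came from GENCODE 44 (99.2% of symbols matched) and promoters from RefSeq (GRCh38.p14), with all 3 ligands matched. Alternatives were DESeq2 (1.42.0) and its size factors, other filters, only the 8 libraries compared, a replicate block, a fold threshold of 1 (log2), a pseudocount of 1, mean transcript length, and each library left out.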

Additional observations from a re-analysis of the deposited data

Results flagged for a closer look

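In 5 of the 23 groups of libraries with over 3 counts of a ligand in some library, 1 library stood so far from its other 3 that the gap exceeded Dixon's 95% critical value. Chance flags about 1 in 20 groups of continuous values, a rate that does not hold for counts with several libraries at 0, so the number of cases carries no weight. CXCL9 was at 9.98 CPM (11 counts) in TGF-β1 replicate 3 and at 9.64 CPM (18 counts) in TNF replicate 4, with 0 in the other libraries of each group. IL-13 replicate 1 stood apart for CXCL10 (9.29 CPM, 14 counts) and CXCL11 (5.97 CPM, 9 counts). CXCL11 was at 4.22 CPM (6 counts) in unstimulated replicate 3 and at 0 in the other 3 unstimulated libraries. In 4 of these cases the other 3 libraries of the group were all at 0, and all 5 rest on 18 counts or fewer.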

How the results depend on the processing

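The 40 fold changes and differences between cytokines, 3 ratio differences and 3 levels per length were recomputed under 614 alternatives, of which 567 kept direction and call. DESeq2's Wald test lost the calls of CXCL9 for IFNγ against IFNα (6.67) and IFNγ against TNF (6.18), and of CXCL10 (2.01) and CXCL11 (3.82) for TNF against IL-1β. With all genes of any count, CXCL10 was called with IL-6 (1.99), IL-17A (1.58) and IL-22 (2.31), and CXCL9 with TNF (3.58) and TGF-β1 (3.35), for IFNα against IL-1β (4.42) and for TNF against IL-1β (5.08), and the cause was not tested. That fit gave far smaller p-values at like fold changes (CXCL10 with IL-1β at 1.1e-43 against 0.000194), so its calls carry little weight. Mean transcript length moved CXCL11 to 3455 CPM per kb with IFNα and 2074 with IFNγ. Only the 8 libraries compared gave 24 values, since some filters dropped a ligand, and DESeq2's size factors, a minimum of 10 counts in 4 libraries, a log2 fold threshold of 1 and a pseudocount of 1 changed no call.

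With each library left out, ranges for results whose call or sign changed were, for CXCL10, -1.42 to 1.74 (IL-13), -1.23 to 0.64 (OSM), -0.32 to 0.046 (IFNγ against IFNα) and 1.78 to 2.23 (TNF against IL-1β). For CXCL11 they were 2.74 to 4.26 (TNF against IL-1β) and -0.18 to 1.69 (TGF-β1 against TNF). For CXCL9 they were -1.48 to 5.06 (TNF), -1.49 to 4.85 (TGF-β1) and -1.04 to 4.42 (IFNα against TNF). An end of a CXCL9 range that left a group at 0 counts is a fitted value and no measure of size. The ratio differences ranged from 1.95 to 2.85 (IFNα minus TNF) and 1.41 to 2.31 (IFNγ minus TNF), where 3 against 4 libraries cannot give an exact p below 0.0571, so their calls there are no test of stability.

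Replicate numbers did not meet the criterion for pairing, since in 0 of 10 groups did every correlation of deviations with the unstimulated library of the same number exceed 0.1. Libraries numbered 1 and 2 did differ from those numbered 3 and 4 in the summed fibroblast markers in 8 of 10 cytokine groups. With the replicate block, all 40 results kept their call, for example CXCL10 at 11.34 with IFNγ and CXCL9 at 9.52. At these depths 3 counts were worth 1.39 to 3.84 CPM, so unstimulated levels rest on 13 counts of CXCL10, 6 of CXCL11 and 1 of CXCL9.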

Other observations

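In both interferon groups, CXCL10 was higher in replicates 3 and 4 than in replicates 1 and 2, at 7931 and 6948 against 3599 and 4442 CPM with IFNγ and at 7100 and 6807 against 5615 and 5751 CPM with IFNα. CXCL11 did not show this with IFNα, where replicate 3 was the lowest at 3684 CPM. The summed level of the 9 fibroblast markers ran the other way, at 20488 and 17245 against 27865 and 34348 CPM with IFNγ and at 27503 and 26958 against 32296 and 35149 CPM with IFNα. The marker sum was higher in both of replicates 1 and 2 than in both of 3 and 4 in 8 of the 10 cytokine groups (all but IL-6 and TGF-β1) and not in unstimulated cells. The replicate block, which takes up such a difference, changed no call among the fold changes and was not run on the ratios. The labels do not say whether these numbers mark a culture, plate or day, and the part of such a difference was not tested.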
